A study of Mus musculus with 2 samples.

Results

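The genes described here encode the proteins that eosinophils store in their granules. They are the rows of the deposited spleen table named Prg2, Prg3, Epx, Ear1, Ear2 and Ear6, that is 6 of 22791 genes, and each of them had at least 20 counts over both libraries, as did 12929 genes in all. They were listed by name and by the role of their product, with earlier results of these data known. Male C57BL/6 mice (C57BL/6J by the methods of the study), young adults fasted overnight, received APAP at 300 mg/kg in 0.9% NaCl or 0.9% NaCl alone (ctrl) by intraperitoneal injection, and the spleen was taken after 30 h. All mice were wildtype. The labels name the exchange between the injured liver and the spleen as the question. RNA of unequal numbers of mice was pooled per group, and 1 library per pool was sequenced next to the poly(A) tail by massive analysis of cDNA ends (MACE). There is accordingly no replicate and no test, intervals are 95% intervals of counting error, and the spread between mice is not contained in any value.

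Eosinophils are granulocytes that mature in the bone marrow under interleukin-5 and transcription factors of the GATA and C/EBP families, and the red pulp of the mouse spleen holds a small number of them. Their large granules have a crystalline core of major basic protein, the processed product of Prg2, and a matrix with eosinophil peroxidase (Epx) and with ribonucleases of the RNase A superfamily. Prg3 encodes a homologue of major basic protein. In mice the eosinophil-associated ribonucleases (Ear) have multiplied into a cluster of closely related genes, relatives of human eosinophil cationic protein and eosinophil-derived neurotoxin, and Ear1 and Ear2 are known to be transcribed in monocytes and macrophages as well. The mRNA of granule proteins is made mainly while the granules are being filled in maturing precursors.

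In mm10, Prg2 (chromosome 2, 84980461 to 84983632) and Prg3 (84988215 to 84993886) lie next to each other, both on the plus strand, and the start of Prg3 lies 4583 bases after the end of Prg2. Epx is a minus strand gene of chromosome 11 (87864000 to 87875536). The 3 ribonuclease genes are on chromosome 14, with Ear1 from 43818765 to 43875517 on the minus strand, Ear2 from 44102654 to 44103534 on the plus strand and Ear6 from 51853699 to 51854643 on the plus strand. By the GENCODE M21 annotation, exons of 5 of the 6 genes overlap no exon of another gene, whereas Ear1 shares exonic sequence with the pseudogene Ear-ps9 on the same strand.

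The stretches around the transcription starts are shown so that the close likeness of the ribonuclease genes can be seen beyond their transcripts. They have no bearing on the assignment of MACE reads, which come from the other end of the transcript. Each stretch runs from 250 bases before to 50 bases after the start (RefSeq, GRCm38.p6), 5′ to 3′ on the strand of the gene, and RefSeq entries were at hand for 5 of the 6 genes (chr2:84987965-84988264 for Prg3, chr11:87875487-87875786 for Epx, chr14:43819590-43819889 for Ear1, chr14:44102404-44102703 for Ear2 and chr14:51853518-51853817 for Ear6). For 2 genes the RefSeq start differs from that of the GENCODE coordinates above. The minus strand gene Ear1 starts at 43875517 there, far from its stretch. The GENCODE start of Ear6, 51853699, lies within its stretch, before the RefSeq start. Capitals mark matches to GATAA, the core bound by GATA factors, and to TTNCNNAA, a loose form of the C/EBP site, on either strand.
Ear1: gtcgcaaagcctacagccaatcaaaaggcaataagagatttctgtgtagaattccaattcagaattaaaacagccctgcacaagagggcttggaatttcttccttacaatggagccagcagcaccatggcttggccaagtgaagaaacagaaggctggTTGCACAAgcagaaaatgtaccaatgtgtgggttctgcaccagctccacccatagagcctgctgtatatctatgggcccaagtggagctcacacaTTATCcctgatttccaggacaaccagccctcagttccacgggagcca
Ear2: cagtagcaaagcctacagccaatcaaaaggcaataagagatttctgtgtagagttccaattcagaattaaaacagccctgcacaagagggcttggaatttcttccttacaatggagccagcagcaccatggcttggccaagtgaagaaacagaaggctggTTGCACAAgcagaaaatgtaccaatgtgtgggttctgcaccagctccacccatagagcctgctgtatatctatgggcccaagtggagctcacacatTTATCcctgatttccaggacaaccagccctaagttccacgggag
Ear6: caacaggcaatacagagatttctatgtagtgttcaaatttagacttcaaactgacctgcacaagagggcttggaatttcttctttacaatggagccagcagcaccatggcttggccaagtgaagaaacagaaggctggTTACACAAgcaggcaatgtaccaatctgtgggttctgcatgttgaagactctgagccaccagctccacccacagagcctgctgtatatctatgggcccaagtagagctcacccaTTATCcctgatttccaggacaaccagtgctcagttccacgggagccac
Prg3: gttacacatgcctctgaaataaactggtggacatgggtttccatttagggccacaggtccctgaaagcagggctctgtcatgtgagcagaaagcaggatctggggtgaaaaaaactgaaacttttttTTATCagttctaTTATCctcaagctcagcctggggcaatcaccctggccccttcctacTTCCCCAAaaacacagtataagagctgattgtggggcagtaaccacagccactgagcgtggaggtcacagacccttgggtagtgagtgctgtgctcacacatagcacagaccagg
Epx: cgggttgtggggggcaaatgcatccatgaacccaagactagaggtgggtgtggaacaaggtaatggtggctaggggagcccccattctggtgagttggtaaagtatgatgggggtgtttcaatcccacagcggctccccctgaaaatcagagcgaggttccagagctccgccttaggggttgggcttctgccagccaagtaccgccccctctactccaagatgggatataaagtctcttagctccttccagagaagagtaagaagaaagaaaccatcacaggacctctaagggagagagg
The stretches of Ear1 and Ear2 were identical at 294 of 303 aligned positions (97.0%), while that of Ear6 matched Ear1 at 81.3% and Ear2 at 79.9%. Each of the 3 ribonuclease genes held 1 GATAA on the minus strand. It began at position 4 in Ear1, 7 in Ear2 and 3 in Ear6, where position 1 is the RefSeq start. Each also held 1 match to TTNCNNAA before that start. Prg3 held 2 GATAA matches on the minus strand, 123 and 111 bases before the start, and 1 match to TTNCNNAA, and Epx held neither. GATAA occurred in 25.4% and TTNCNNAA in 40.7% of all 32851 RefSeq stretches of this kind. Both are thus common, and their matches are given as a description. GAGGAAG, a core bound by PU.1, was found in none of the 5 and in 13.6% of all stretches.

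Prg2 mRNA, which encodes the core protein of the granule, was the most abundant of the 6 and was higher in APAP. It had 91 counts in ctrl and 259 in APAP, which as CPM, that is counts scaled to a library total of 1000000, are 33.3 (interval 26.8 to 40.8) and 89.6 (79.0 to 101). The normalised ratio APAP/ctrl, the ratio of counts divided by DESeq2 size factors, was 2.56 (2.01 to 3.29). The intervals of the libraries did not overlap. In bulk RNA, more cells of a type and more RNA per cell cannot be told apart, here and for all values that follow. Its neighbour Prg3, by contrast, was measured with 30 counts in ctrl (11.0 CPM, 7.399 to 15.7) and 39 in APAP (13.5 CPM, 9.59 to 18.4). Its ratio of 1.17 had an interval of 0.708 to 1.95, and the intervals of the levels overlapped. At this depth no difference of Prg3 between the libraries was detected beyond counting error.

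Epx mRNA, encoding the peroxidase that forms hypobromous acid, was the scarcest, with 7 counts in ctrl (2.56 CPM, 1.03 to 5.27) and 21 in APAP (7.26 CPM, 4.50 to 11.1). Its ratio of 2.70 was the highest point estimate of the 6, but the interval of 1.11 to 7.52 was also the widest. With 28 counts in all, 21 in APAP is the lowest number for which the interval lies above 1, so that a single read assigned to the other library would have taken the interval across 1.

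Of the ribonuclease genes, Ear2 had 81 counts in ctrl (29.6 CPM, 23.5 to 36.8) and 172 in APAP (59.5 CPM, 50.9 to 69.1), with a ratio of 1.91 (1.46 to 2.52). Ear1 had 34 and 68 counts, or 12.4 CPM (8.61 to 17.4) and 23.5 CPM (18.3 to 29.8), and a ratio of 1.80 (1.18 to 2.80). Ear6 had 11 and 25 counts, or 4.02 CPM (2.01 to 7.19) and 8.65 CPM (5.60 to 12.8), and a ratio of 2.05, but here the interval of 0.971 to 4.61 reached below 1. The 3 ratios lay close to each other and all above 1, and those of Ear1 and Ear2 had intervals above 1.

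**Figure D1:**
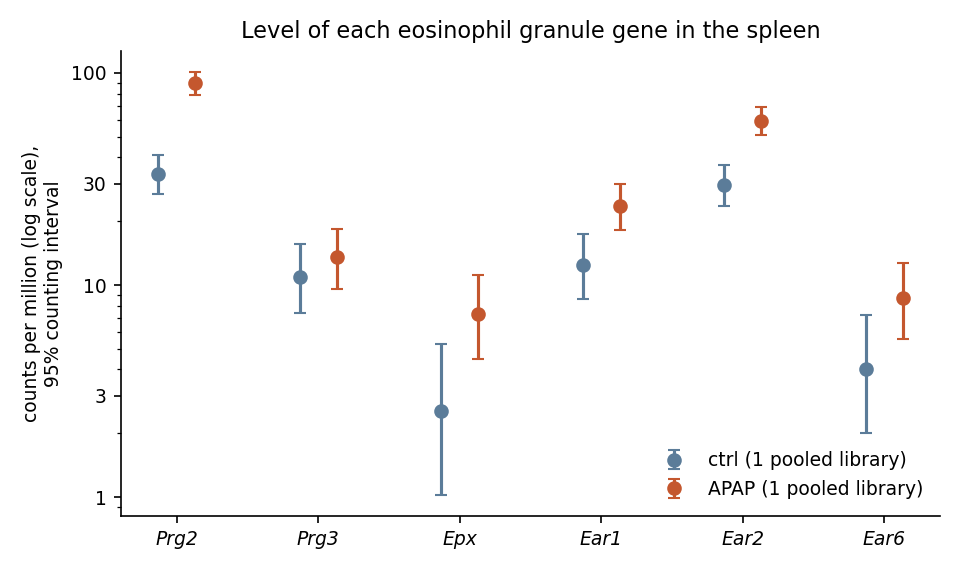
CPM on a log scale of the 6 granule genes in the ctrl library (blue) and the APAP library (orange). Points are the single pooled library of each group and bars exact 95% Poisson intervals of counting error; Prg2 stood at 33.3 and 89.6 CPM, Ear2 at 29.6 and 59.5 CPM, and the bars of Prg3, Epx and Ear6 overlapped between the libraries.

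Since a MACE read marks the end of a transcript, CPM were compared between genes without division by length. The order of the levels was the same in both libraries, namely Prg2, Ear2, Ear1, Prg3, Ear6 and Epx. In ctrl the intervals of Prg2 and Ear2 overlapped, as did those of Ear1 and Prg3 and those of Ear6 and Epx. In APAP the intervals of Prg2 (79.0 to 101 CPM) and Ear2 (50.9 to 69.1 CPM) no longer overlapped, while those of Ear1 and Prg3, of Prg3 and Ear6 and of Ear6 and Epx did. Overlap does not show that 2 levels are equal. In APAP the interval of Ear1 began at 18.3 CPM and that of Prg3 ended at 18.4 CPM, so that they barely met. Prg2 made up 35.8% of the reads of the 6 genes in ctrl (Wilson, 30.2 to 41.9) and then 44.3% in APAP (40.4 to 48.4), and the share of Prg3 was 11.8% (8.40 to 16.4) in ctrl and 6.68% (4.92 to 8.999) in APAP. For each of the remaining 4 genes the share in APAP lay within the interval of its share in ctrl.

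**Figure D2:**
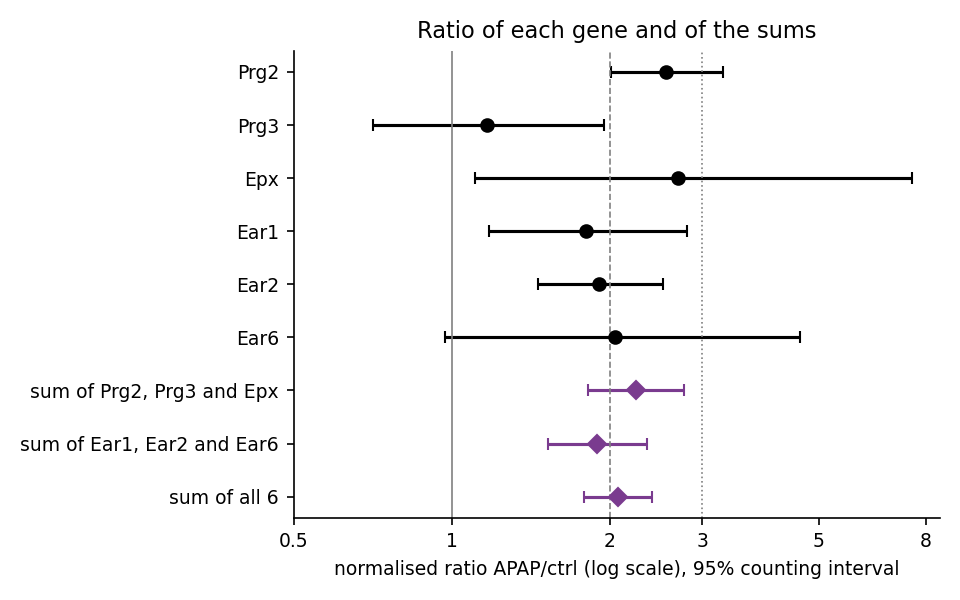
Normalised ratio APAP/ctrl on a log scale for each granule gene (black circles) and for summed counts (purple diamonds), with exact 95% intervals of counting error; vertical lines mark 1 (solid), 2 (dashed) and 3 (dotted). Prg2 stood at 2.56 and Prg3 at 1.17, and the intervals of Prg3 and Ear6 include 1.

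Summed over the 6 genes, 254 counts in ctrl faced 584 in APAP, or 92.8 and 202 CPM, a ratio of 2.07 (1.78 to 2.41). The core and peroxidase genes Prg2, Prg3 and Epx together had a ratio of 2.24 (1.82 to 2.78) and the ribonuclease genes Ear1, Ear2 and Ear6 of 1.89 (1.53 to 2.36). Without Prg2 the sum of the other 5 genes still had a ratio of 1.79 (1.48 to 2.18).

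A ratio of ratios between a pair of genes is free of any scaling of the libraries, and was given with an exact conditional interval. Among 15 pairs of the 6 genes, the interval excluded 1 in 1 pair, Prg2 over Prg3 (2.19, 1.23 to 3.85). These are the neighbours on chromosome 2, and the intervals were not adjusted for the number of pairs. Prg2 over Ear2 gave 1.34 (0.923 to 1.94), Ear1 over Ear2 0.942 (0.563 to 1.59) and Prg3 over Ear2 0.612 (0.344 to 1.10), intervals that leave room for differences of some size in either direction. The sum of Prg2, Prg3 and Epx over that of the ribonuclease genes gave 1.18 (0.872 to 1.61).

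The depth set what could be seen for each gene. At its 350 counts Prg2 would have had an interval above 1 from a ratio of 1.24 on, and Ear2 with 253 counts from 1.31 on. For Ear1 (102 counts) that limit was 1.58, for Prg3 (69 counts) 1.69, for Ear6 (36 counts) 2.34 and for Epx 2.70. Ear6 thus missed an interval above 1 at a ratio higher than those of Ear1 and Ear2.

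The reads of the ribonuclease genes deserve reserve, since these transcripts are near copies. Ear1 and Ear2 transcripts were identical at 96.1% of aligned positions, Ear1 and Ear6 at 88.8% and Ear2 and Ear6 at 88.4%. Of the 50-base words in the last 400 bases of the transcript, 60.4% in Ear1, 27.4% in Ear2 and 2.56% in Ear6 also occur in a transcript of another gene, in each case other Ear genes or Ear pseudogenes. With words of 100 bases these shares were 25.9% for Ear1 and 0% for Ear2 and Ear6. Prg2, Prg3 and Epx shared no such word of 50 bases with another gene. Neither the read length nor the handling of reads that map to several places is given in the sources used here, so that the single values of Ear1 and Ear2 are uncertain. Without Ear1 and Ear2, a choice made after seeing the data, the sum of the other 4 granule genes had a ratio of 2.23 (1.82 to 2.73). Among the other annotated genes of the family, Ear10 was counted 4 times in ctrl and 3 times in APAP, Rnase2b 1 time and 0 times, and no counts of Rnase2a and Ear14 were analysed here. Ear-ps2 had 5 and 5 counts and Ear-ps9 1 and 2. Summed over Ear1, Ear2, Ear6 and Ear10, the ratio was 1.86 (1.499 to 2.31).

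Set against the whole table, 6 of the 6 genes had a ratio above 1, compared with 53.2% of the 12929 genes with at least 20 counts. The median log2 ratio was 0.98 for the 6 genes and 0.02 over those 12929 genes. An interval above 1 was found for 4 of the 6 genes, namely Prg2, Epx, Ear1 and Ear2, compared with 9.13% of genes. A size rule, which asked for at least 20 counts, a ratio of 2 or more in one direction or the other and an interval without 1, was met by Prg2 and Epx as higher in APAP, 2 of 6 compared with 1.39% of genes. None of the 6 met it as lower, compared with 1.68% of genes. A threshold of more than 3-fold with 0 counts replaced by 1, applied to the normalised counts, was passed by 0 of the 6 genes and by 2.40% of the 22791 genes of the table. That share includes genes of any count. Of the 12929 genes with at least 20 counts, to which the 6 belong, 48 passed it. By ratio, Epx and Prg2 stood at percentiles 99.4 and 99.3 of the genes with at least 20 counts, Ear6 at 98.0, Ear2 at 97.5, Ear1 at 96.7 and Prg3 at 73.5. With library totals in place of DESeq2 size factors, Ear2 (2.01, 1.53 to 2.65) and Ear6 (2.15, 1.02 to 4.84) met the size rule as well, which made 4 of 6. Library totals also turned the balance over all genes from 180 higher and 217 lower to 237 higher and 180 lower. With totals that leave out the 25 pancreas genes described below, 2 of 6 met the rule again (Prg2 and Epx), and 177 genes were higher and 217 lower.

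**Figure D3:**
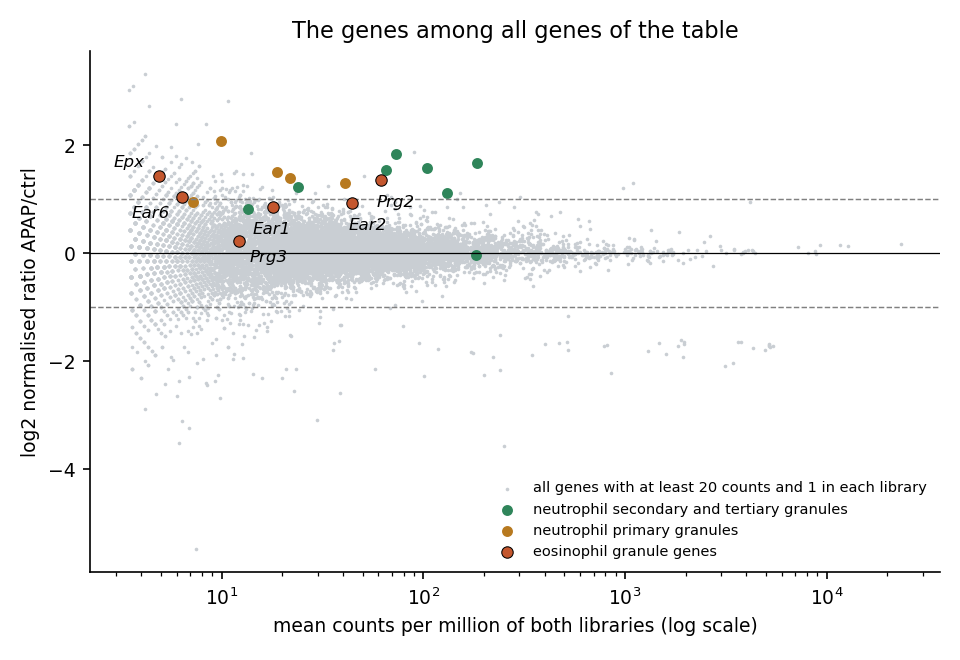
Log2 normalised ratio APAP/ctrl against mean CPM (log scale) of all genes with at least 20 counts and at least 1 count in each library (grey); dashed lines mark a ratio of 2 in either direction. The 6 granule genes (orange, named) lie above 0, Prg2 at 1.36 and Prg3 at 0.23, beside the listed genes of neutrophil granules (green and brown).

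Other genes that act in eosinophils were less uniform. Of 9 listed surface receptors, 7 were in the table and 5 had at least 20 counts. None of these met the size rule, and their median log2 ratio was 0.11. Siglecf, which encodes the sialic acid-binding lectin used to identify mouse eosinophils, had 0 counts in ctrl, which allows up to 1.10 CPM, and 3 in APAP, so that no ratio can be given. Ccr3, the gene of the eotaxin receptor, had 168 and 235 counts (1.26, 1.03 to 1.54), and Csf2rb, the common beta chain of the receptors for interleukin-5, interleukin-3 and GM-CSF, had 155 and 255 (1.48, 1.21 to 1.82). Il5ra, the interleukin-5 receptor alpha chain, had 7 and 6 counts. Intervals that include 1 were found for Csf2ra (105 and 126 counts, 1.08, 0.827 to 1.41), Csf2rb2 (89 and 98, 0.991, 0.736 to 1.34) and Il1rl1 (10 and 10, 0.9, 0.336 to 2.41). The listed receptor genes were thus at or near 0 (Siglecf, Il5ra) or showed no difference beyond counting error (Csf2ra, Csf2rb2, Il1rl1). Ccr3 and Csf2rb were higher by a smaller ratio than Prg2.

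Of 10 transcription factor genes of the lineage, 9 had a ratio above 1 and 5 an interval above 1, with a median log2 ratio of 0.22. Cebpe, which drives the terminal maturation of both eosinophils and neutrophils, met the size rule with 3 and 22 counts (6.60, 1.98 to 34.4). Gata1, which is needed for the eosinophil lineage and acts in erythroid and megakaryocytic cells too, had 32 and 66 counts (1.86, 1.20 to 2.93), and Gata2 had 20 and 37 (1.67, 0.942 to 3.03). Smaller ratios with intervals above 1 were those of Zfpm1 (1.39, 1.04 to 1.85), Id2 (1.23, 1.09 to 1.39) and Irf8 (1.11, 1.004 to 1.22). The intervals of Spi1 (1.10, 0.936 to 1.29), Trib1 (1.05, 0.681 to 1.63) and Xbp1 (1.04, 0.914 to 1.18) included 1. So did that of Cebpa (75 and 75 counts, 0.9, 0.645 to 1.26). The 4 enzymes of lipid mediators all had a ratio above 1 (median log2 ratio 0.77). Of these, Alox5ap, the 5-lipoxygenase activating protein found in myeloid cells in general, met the size rule with 113 and 264 counts (2.10, 1.68 to 2.64), and counts of its exons may include the overlapping antisense gene Gm19719, since nothing is known here of the strand setting.

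Of 13 listed growth factors and attractants of eosinophils, 4 had at least 20 counts and none met the rule (median log2 ratio 0.45). The eotaxin gene Ccl24 had 23 and 43 counts (1.68, 0.992 to 2.93), Il33 had 35 and 52 (1.34, 0.855 to 2.11), and Ccl5, which T cells and NK cells also produce, had 682 and 558 (0.736, 0.657 to 0.825). Among sequence relatives of the granule proteins, 2 other haem peroxidase genes had at least 20 counts and both had an interval above 1 (median log2 ratio 0.91), whereas of 4 such genes of other ribonucleases of the A superfamily 2 met the size rule as lower (median log2 ratio -0.58). Mpo, the myeloperoxidase of neutrophils and the counterpart of Epx, had 62 and 170 counts (2.47, 1.83 to 3.36), with the opposite-strand gene Gm11505 overlapping its exons. The secreted ribonuclease genes Rnase1 (6800 and 2057, ratio 0.272) and Ang (29 and 16, ratio 0.497, with exons shared with Rnase4) were those that met the rule as lower. Rnase1 belongs to a list of 25 pancreas genes which took 7.08% of counts in the ctrl library and 2.14% in the APAP library, and 24 of 24 with at least 20 counts met the rule as lower (median log2 ratio -1.81). Further pancreas genes lie outside the list, such as the amylase gene Amy2a4 (21479 and 7265 counts, ratio 0.304), so that the shares of all such genes were larger. With totals that leave out those 25 genes the summed granule gene ratio was 2.07 (1.78 to 2.40).

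Genes of other cells that share the myeloid origin were set beside the granule genes by the ratio of ratios of summed counts. The sum of the 6 genes over that of 5 genes of neutrophil primary granules gave 0.783 (0.611 to 1.002), and over that of 8 genes of secondary and tertiary granules 0.976 (0.829 to 1.15). The summed level was 52.3 CPM in ctrl and 145 CPM in APAP for the primary and 483 and 1077 CPM for the later granules. With the lists as they stand both intervals of the ratio of ratios include 1, but this rests on single list members. Cybb, which encodes a subunit of the phagocyte NADPH oxidase and is expressed in macrophages too, had 494 and 539 counts (0.982, 0.868 to 1.11), or 37.4% of the ctrl counts of the later granules. Without Cybb that list had a ratio of 2.80 (2.59 to 3.03), and the ratio of ratios of the 6 genes over it was 0.739 (0.624 to 0.877). Without Ms4a3 in the primary list it was 0.762 (0.590 to 0.983). These gene-wise omissions were chosen after seeing the data. Among the listed genes the serine protease genes Ctsg had 10 and 47 counts, Elane 26 and 82 and Prtn3, whose exons the opposite-strand gene Plppr3 overlaps, 32 and 93, and of the later granules Ltf had 85 and 335, Ngp 232 and 818, Camp 220 and 528, Lcn2 89 and 286, Chil3 138 and 459 and Mmp9 38 and 98, while Mmp8, with 26 and 51, did not meet the size rule. Against the other lists the interval excluded 1, with 1.48 (1.11 to 1.98) over basophil and mast cell genes, 1.72 (1.48 to 2.01) over classical monocyte genes, 2.24 (1.89 to 2.65) over patrolling monocyte genes, 1.35 (1.16 to 1.58) over red pulp macrophage genes, 2.03 (1.74 to 2.37) over plasma cell genes and 2.51 (2.16 to 2.93) over lymphocyte genes. The first of these rests on Kit, a gene of progenitors as well, which held 59.5% of the ctrl counts of its list. Without Kit the ratio of ratios was 1.14 (0.754 to 1.70), and leaving out any other single gene of the 8 lists changed none of these calls save those given for Cybb and Ms4a3. Ear2, known from patrolling monocytes, had a ratio of ratios of 2.07 (1.56 to 2.75) over their list. Over the red pulp macrophage list it was 1.25 (0.952 to 1.65), an interval that includes 1. In the patrolling monocyte list, Pou2f2, Fabp4 and Spn held 25.9%, 17.5% and 16.0% of the ctrl counts. Their ratios were 0.876, 0.68 and 0.931. Of the 8 genes of that list, 1 had an interval above 1 (Treml4, ratio 1.24) and 2 had an interval below 1. Which cells these reads came from was not tested, so the sum does not show that patrolling monocyte RNA was unchanged.

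**Figure D4:**
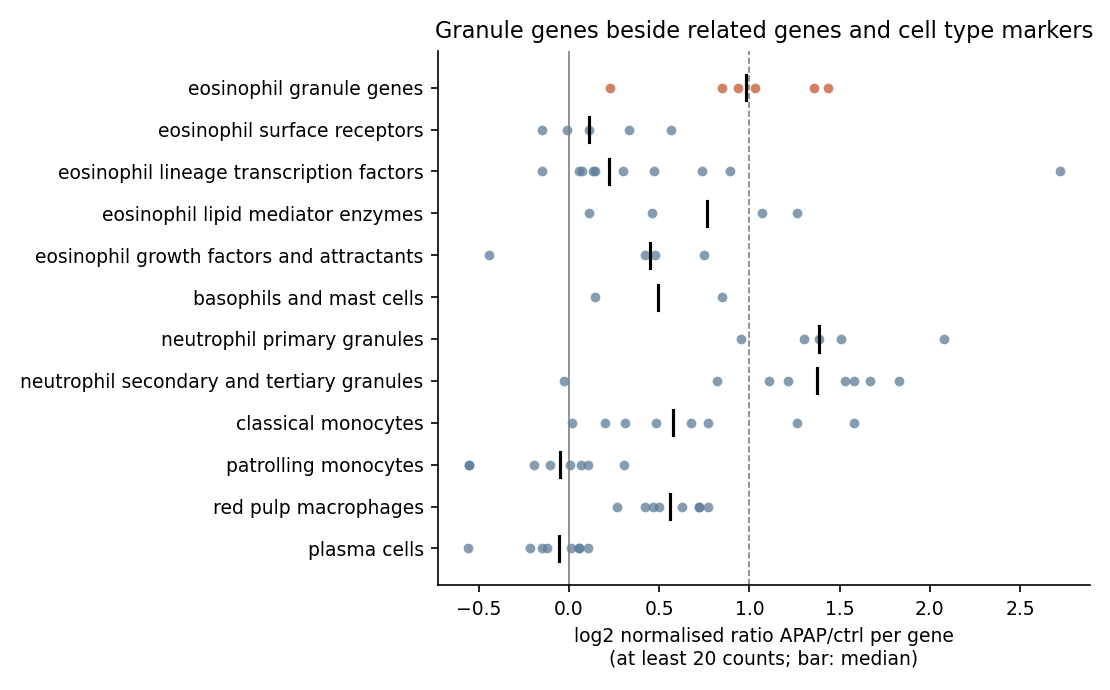
Log2 normalised ratio APAP/ctrl of single genes with at least 20 counts, by list (dots), with the median of each list (black bar); the dashed line marks a ratio of 2. The granule genes (orange) had a median of 0.98, the 2 lists of neutrophil granules 1.39 and 1.37, and patrolling monocytes -0.05.

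Of these lists, the 13 basophil and mast cell genes in the table together had 111 and 172 counts (40.6 and 59.5 CPM). Kit (66 and 81) and Hdc (14 and 28) had at least 20 counts, while the basophil protease genes Mcpt8 (6 and 13) and Prss34 (2 and 13) and the mast cell protease gene Cpa3 (2 and 12) did not reach them. Red pulp macrophage genes had 8 of 8 ratios above 1 (median log2 ratio 0.56, summed level 1810 and 2910 CPM), among them Slc40a1 (1216 and 2086 counts) and Vcam1 (1320 and 2072), and classical monocyte genes 8 of 8 (median 0.58, summed level 3022 and 3822 CPM), among which Chil3, listed for neutrophils too, met the rule. Patrolling monocyte genes had 4 of 8 above 1 (median -0.05, summed level 469 and 457 CPM), with Pou2f2 at 332 and 323 counts and Treml4 at 195 and 268, and plasma cell genes 4 of 8 (median -0.05), with Jchain at 3135 and 3616 counts and Xbp1 at 453 and 523. Lymphocyte genes, listed to check the tissue, were present at a summed 2548 CPM in ctrl and 2207 CPM in APAP, with Cd79b at 2058 and 1979 counts and Ms4a1 at 1244 and 1118, and 0 of 10 had a ratio above 1 (median -0.33). The part of neutrophil, monocyte and macrophage RNA in the values of the 6 genes was not tested.

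The genes nearest to Prg2 in the plane of log2 CPM of both libraries were Lcn2 (distance 0.15), Alox5ap (0.31), Ltf (0.38), Wfdc17 (0.39) and Serpina3n (0.41), of which Lcn2 and Ltf encode proteins of neutrophil granules. Those nearest to Ear2 were the haptoglobin gene Hp (0.07), Clec4a2 and Retnlg (0.11 each, with 87 and 176 counts), Ramp2 (0.11) and Cdh5 (0.14). With 2 libraries this likeness rests on 2 values per gene and describes a similar count rather than a shared pattern.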

How the data were processed

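Per the labels and the paper's methods, splenic RNA was isolated with trizol, treated with DNase I and pooled per group, and libraries were prepared with the MACE-kit v.2 without removal of globin RNA. Duplicates were discarded by molecular identifiers, reads were trimmed, mapped to mm10 and counted with HTSeq. The sources used here name no aligner, annotation or strand setting. The raw counts deposited by the authors were used (2735788 in ctrl, 2890947 in APAP). The values the authors headed TPM equal CPM (largest difference 5.46e-12), and a size-normalised signal deposited by the authors equals counts divided by DESeq2 size factors, and both served as checks. A further 3 columns of means were not used.

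Ratios were scaled with DESeq2 1.42.0 size factors (0.949 and 1.05), with Clopper-Pearson intervals at 95% for ratios, Poisson intervals for levels and conditional intervals for ratios of ratios (R 4.3.3, Python 3.11.15, scipy 1.17.1). A count of 0 allows 3 counts. Intervals cover counting error only. Alternatives were library totals, totals without haemoglobin and immunoglobulin or without the listed pancreas genes, TMM and upper quartile (edgeR 4.0.16). Other minimum counts and other thresholds were tried too. The size rule was tried on simulated counts that held counting error only. Known folds were set there only in genes with more counts than Prg3, Epx and Ear6, so that recovery at their depth was not tested. The 6 genes and 16 lists were chosen with earlier results of these data known. Named genes were the 6, the Ear family, list members that met the size rule or otherwise the 2 with the most counts, and the 5 genes nearest to Prg2 and to Ear2. Siglecf, Il5ra, Csf2ra, Csf2rb2, Il1rl1, Gata1, Gata2, Zfpm1, Id2, Irf8, Spi1, Trib1, Cebpa and Ccl24 fall outside this rule. So do Mcpt8, Prss34, Cpa3, Spn, Fabp4, Cybb, Mmp8 and Ms4a3. All of these genes were named after their values were seen, for their role or to complete a list. Of the listed pancreas genes Rnase1 alone was named, and Amy2a4 was named as a gene outside that list. Coordinates and transcripts are from GENCODE M21 on the same build.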

Additional observations from a re-analysis of the deposited data

How the results depend on the processing

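Under 5 other scalings every ratio and sum of the granule genes stayed within its main counting interval, and Prg2 ranged from 2.51 to 2.72, Prg3 from 1.15 to 1.24, Epx from 2.65 to 2.87, Ear1 from 1.76 to 1.91, Ear2 from 1.87 to 2.03, Ear6 from 2.01 to 2.17 and the sum from 2.03 to 2.20. The number that met the size rule was less stable. It was 2 as stated, and also 2 with TMM, upper quartile and totals without the listed pancreas genes. It was 4 with library totals (Ear2 and Ear6 in addition), and also 4 once haemoglobin and immunoglobulin genes left the totals. It was 1 with at least 50 counts (Prg2), a minimum that Epx (28 counts) and Ear6 (36 counts) did not reach. It was 4 at a ratio of at least 1.5, 0 at a ratio of at least 3 and 3 without a demand on the interval (Ear6 in addition). Over all genes, 180 higher and 217 lower became 67 and 114 with at least 50 counts, 475 and 398 from a 1.5-fold ratio on and 49 and 101 from a 3-fold ratio on, and 275 were higher without a demand on the interval. The 546 genes above 3-fold became 1034 with 0.5 added to both counts and 48 with at least 20 counts. Against the main scaling, all log2 ratios shifted by 0.07 with library totals and by -0.002 with totals without the listed pancreas genes. Pancreas genes outside the list, such as Amy2a4, stayed in those totals, and a scaling without them was not tried. The cause of the changes with scaling was not tested beyond these shifts. With 1 gene of a list left out, a choice made after seeing the data, the ratio of ratios of the granule genes changed its call without Cybb (0.976 to 0.739), Ms4a3 (0.783 to 0.762) and Kit (1.48 to 1.14). No paired analysis was possible because either group is a single pooled library, and none could be left out.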
